A study of Mus musculus with 6 samples.

Results

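In the mouse embryo face at stage E11.5, 3545 distal stretches of accessible chromatin had a peak in every library of the 2 jaw primordia and in no library of the nose. They were chosen by presence alone. All peaks of 6 libraries were merged wherever they shared at least 1 bp, which gave 382006 regions. The 3545 members had a peak in all 4 jaw libraries and in neither nose library, and their strongest summit lay more than 1 kb from any start site of a protein-coding gene. They were 3545 of the 350423 distal regions. Another 112 regions had the same presence pattern but lay within 1 kb of a start site and were left out.

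The libraries came from ATAC-seq of bulk tissue (the Tn5 transposase cuts where chromatin is open) and were read as single ends of 50 bp. Tissue was dissected from wild-type embryos and contained mixed cell types, with no treatment or mutation. Of the 6 libraries, 2 each were labelled maxillary process (the upper jaw primordium), mandibular process (the lower jaw primordium) and nose. The names of the 4 jaw files carry the abbreviation of the other jaw process. Groups follow the sample labels here, and membership does not depend on which jaw is which. Whether replicates are separate embryos is not given in the labels, so the spread between them may be technical. In bulk tissue, fewer cells of a type and less open chromatin per cell cannot be told apart. The lists hold 219779 to 299731 summits and no read depth, so a missing peak means that none was listed, not that the chromatin was closed.

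The maxillary and mandibular processes are both derived from the first pharyngeal arch and are filled with cranial neural crest mesenchyme. The tissue around the nasal pits is formed by the frontonasal prominence. Distal open regions in such tissue often act as enhancers, which bind transcription factors through short sequence motifs and regulate genes that can lie far away. The basic helix-loop-helix factors Twist and Hand, which bind E-boxes as dimers, are known for their roles in facial mesenchyme, as are homeodomain factors of the Dlx, Msx, Lhx and Alx families.

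Sequences of 5 members are shown because the 200 bp around the summit were used for every sequence count below. The first 3 belong to members that were strong in all 4 jaw libraries, and the last 2 to members near genes of lower-jaw patterning. They were read from the RefSeq GRCm38.p6 genome (the build mm10 of the peak lists). Capitals mark the E-box CAGATG, or its reverse complement where the box lies on the other strand.

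Window nearest to Pax3, chr1:78027025-78027224, + strand: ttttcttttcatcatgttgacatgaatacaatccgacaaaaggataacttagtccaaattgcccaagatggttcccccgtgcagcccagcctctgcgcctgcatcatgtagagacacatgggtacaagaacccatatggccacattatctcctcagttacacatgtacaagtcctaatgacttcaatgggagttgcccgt
Window nearest to Igfbp3, chr11:7796433-7796632, + strand: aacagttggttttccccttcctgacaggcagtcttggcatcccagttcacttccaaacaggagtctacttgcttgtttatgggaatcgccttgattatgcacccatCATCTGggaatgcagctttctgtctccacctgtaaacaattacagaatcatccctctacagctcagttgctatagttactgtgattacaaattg
Window nearest to Unc5d, chr8:30002034-30002233, + strand: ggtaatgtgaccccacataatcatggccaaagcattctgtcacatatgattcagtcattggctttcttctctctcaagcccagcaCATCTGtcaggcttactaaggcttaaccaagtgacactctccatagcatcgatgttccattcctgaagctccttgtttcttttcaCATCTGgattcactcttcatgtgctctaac
Window nearest to Hand2, chr8:57349412-57349611, + strand: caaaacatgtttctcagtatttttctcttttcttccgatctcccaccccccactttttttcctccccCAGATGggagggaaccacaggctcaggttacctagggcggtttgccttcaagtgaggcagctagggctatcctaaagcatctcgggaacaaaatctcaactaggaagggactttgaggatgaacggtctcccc
Window nearest to Gsc, chr12:104465525-104465724, + strand: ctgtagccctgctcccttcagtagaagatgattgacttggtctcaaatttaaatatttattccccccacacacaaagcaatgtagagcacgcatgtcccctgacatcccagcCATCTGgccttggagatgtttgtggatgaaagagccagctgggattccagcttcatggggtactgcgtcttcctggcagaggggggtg

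The Pax3 and Igfbp3 windows belong to the 2 members that ranked highest in their weakest jaw library. The Pax3 window holds no such E-box, while those nearest to Igfbp3, Hand2 and Gsc hold 1 each and that nearest to Unc5d holds 2. These windows were not drawn at random, so they do not show how common the box is. Of like windows not shown, those of strong members nearest to Zmym5 and Zfhx4 lack it, and that nearest to Trdmt1 holds it. Those of the strongest members near Ednra, Mef2c, Dlx5 and Barx1 lack it, and that near Dlx4 holds it.

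Members were weaker peaks than regions open everywhere. The rule selects on the presence of listed peaks, so this contrast is not independent of it. The q-value of a peak is its false discovery rate as given by the authors' peak caller, so a larger −log10 q is a stronger peak. The median −log10 q of the members was 2.92 and 5.55 in the libraries labelled maxillary process and 4.33 and 3.41 in those labelled mandibular process. In regions present in all 6 libraries the medians in the same 4 libraries were 5.02, 11.47, 8.28 and 7.37. Within the whole lists, the median percentile of the members was 37.1 and 44.3 in the maxillary and 48.7 and 41.7 in the mandibular libraries, so they stood near the middle. The members were close to the regions that 1 jaw shared with the nose: regions of maxillary process and nose had medians of 2.92 and 5.79 in the maxillary libraries, and regions of mandibular process and nose had 3.44 and 3.402 in the mandibular libraries. The weakest listed −log10 q was 2.55 in maxillary process replicate 2 (299726 summits), 1.62 in mandibular process replicate 1 (299731 summits) and 1.3 in the other lists. A peak could therefore be missing from these 2 lists at a strength that was listed elsewhere. Leanings between the jaws were judged by the percentile of the −log10 p within each list, which does not remove this difference. A −log10 q of at least 5 in all 4 jaw libraries was reached by 147 members (4.15%), in 3 of them by 464, in 2 by 813, in 1 by 1232 and in none by 889.

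**Figure D1:**
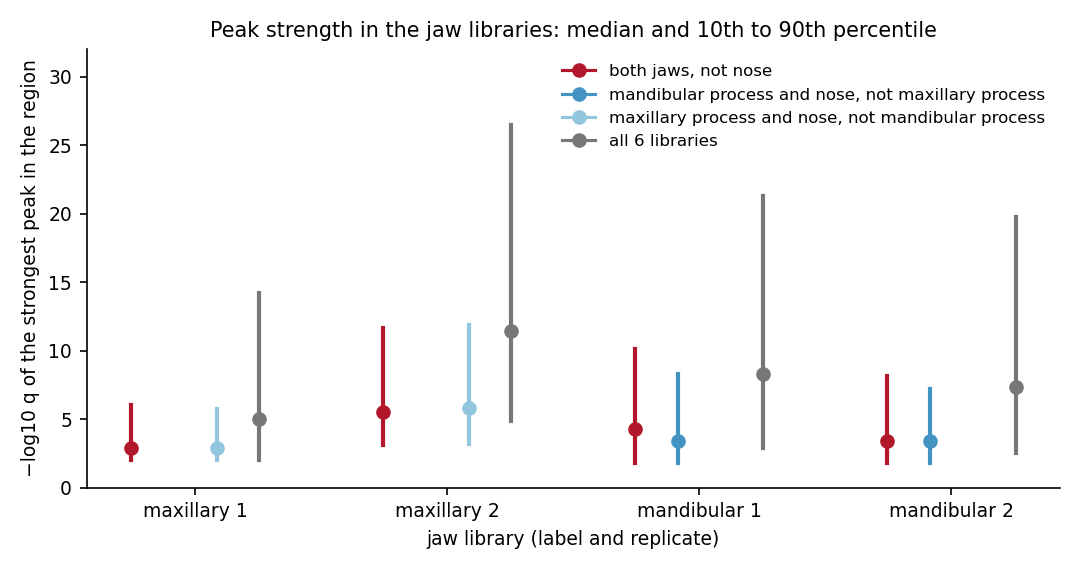
Strength of peaks (−log10 q, vertical axis) in the 4 jaw libraries (horizontal axis, label and replicate) for members (red), regions of 1 jaw and nose (blues) and regions of all 6 libraries (grey). Points are medians and lines run from the 10th to the 90th percentile; the members' medians lie between 2.92 and 5.55, below those of regions present in all 6 libraries in each library.

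Of the 62143 distal regions with a peak in all 4 jaw libraries, 5.7% lacked one in both nose libraries and are the members, and 6382 had one in 1 nose library only. Those single nose peaks had −log10 q values between 1.3 and 14.03, with a median of 2.63. A further 7959 regions lacked the nose and 1 of the jaw libraries. The number of members therefore depends on each library: without maxillary process replicate 1 the same rule gave 6952, without mandibular process replicate 2 it gave 5440, and without nose replicate 1 or 2 it gave 6552 and 6974, each under a rule with 1 fewer library to satisfy. The nearest nose peak lay a median of 2.78 kb away (95% interval 2.57 to 2.93 kb), and 739 members (20.8%) had one within 500 bp. At the distance limit, the members closest to a start site lay 1011 bp from that of Twist2, a basic helix-loop-helix factor, 1045 bp from Slc25a18 and 1058 bp from C1qc. The regions just outside lay 995 bp from Prg3, 984 bp from Tmem110 and 979 bp from Fam83h. The member with the lowest percentile in any jaw list, near Vps8, had a −log10 q of 1.3 in mandibular process replicate 2, where it stood at the percentile 0.0183.

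The 12 strongest members, ranked by the lowest percentile of their −log10 p within the 4 jaw lists, lay between genes or in introns. The first was chr1:78026698-78027358, intergenic and 170 kb from Pax3, a paired-box factor of neural crest. Its −log10 q was 12.3 and 18.4 in the maxillary libraries and 17.98 and 18.9 in the mandibular libraries. It is the first of 3 members within 39.97 kb (chr1:78026698-78066664), all with Pax3 as the nearest protein-coding gene. The second, chr11:7796308-7797004, lay 583 kb from Igfbp3, a binding protein of insulin-like growth factors, with a −log10 q of 12.1 and 16.4 in the maxillary and 12.2 and 17.1 in the mandibular libraries. By percentile within the lists, the member near Pax3 stood at 86.1 and 85.7 in the maxillary and 89.8 and 91.1 in the mandibular libraries, without overlap, and the member near Igfbp3 at 85.7 and 83.3 in the maxillary and 82.2 and 89.5 in the mandibular libraries, with overlap.

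The next strongest included members 27.4 kb from Zmym5 on chromosome 14, 11.7 kb from Trdmt1 on chromosome 2, 782 kb from Unc5d (a netrin receptor) on chromosome 8, and 229 kb from Zfhx4, a zinc-finger homeodomain factor, on chromosome 3. They were followed by members 205 kb from Gm6793, 28.0 kb from Ostm1, in an intron of Fstl5, 11.4 kb from Ncoa2, in an intron of Grin3a and 605 kb from Nectin3. A member 16.9 kb from Sox9, the master regulator of cartilage (chr11:112798714-112799315), had a −log10 q of 9.62 and 12.7 in the maxillary and 9.35 and 9.33 in the mandibular libraries, so it too was strong in all 4.

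By distance from genes, members were closer to the regions that 1 jaw shared with the nose than to the regions open everywhere. The median member lay 73.2 kb from the nearest protein-coding start site (68.2 to 78.6 kb, 95% interval), against 72.0 kb for mandibular process and nose, 80.4 kb for maxillary process and nose, and 50.4 kb for all 6 libraries. Members were intronic in 46.9% of cases (45.3 to 48.6%, Wilson 95% interval), exonic in 4.26% and intergenic in 48.8%. The intronic share was 49.7% for mandibular process and nose, 50.5% for maxillary process and nose and 48.8% for all 6 libraries. The median merged width was 362 bp, against 322 and 370.5 bp for the sets of 1 jaw and nose and 486 bp for all 6 libraries. Median GC content of the 200 bp window was 45%, against 45.5% for mandibular process and nose, 46.5% for maxillary process and nose and 49.0% for all 6 libraries. Regions are not independent samples, and intervals cover counting error only, so no test was made of these differences.

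The 6-letter word with the largest excess in the members over the like sets was an E-box. CAGATG, a form bound by Twist and Hand dimers with E-proteins, stood within the 200 bp window of 1296 of 3545 members. This is 36.6% (Wilson 95% interval 35.0 to 38.2%), counting either strand. The letters alone do not show which factor binds. The share was 23.4% (22.2 to 24.7%) in regions of mandibular process and nose, 19.97% (18.6 to 21.4%) in regions of maxillary process and nose, 16.2% (15.6 to 16.9%) in regions of nose only and 21.5% in all distal regions. Regions of maxillary process only and mandibular process only had 26.3% and 27.0%, so the share among regions of both jaws was above that of either jaw alone. Regions with all 4 jaw libraries and 1 nose library stood between, at 29.5%, and those of all 6 libraries at 24.5%. Weighting the like sets to the members' GC content left them at 23.5% (mandibular process and nose) and 20.2% (maxillary process and nose). When all 2080 possible 6-letter words (each with its reverse complement) were ranked by the members' share minus that of the higher of these like sets, CAGATG was first, with a difference of 13.1 percentage points. The second word, ACATCT at 8.08 points, and the third, ATCTGG at 6.81 points, overlap the same box and its flanks.

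**Figure D2:**
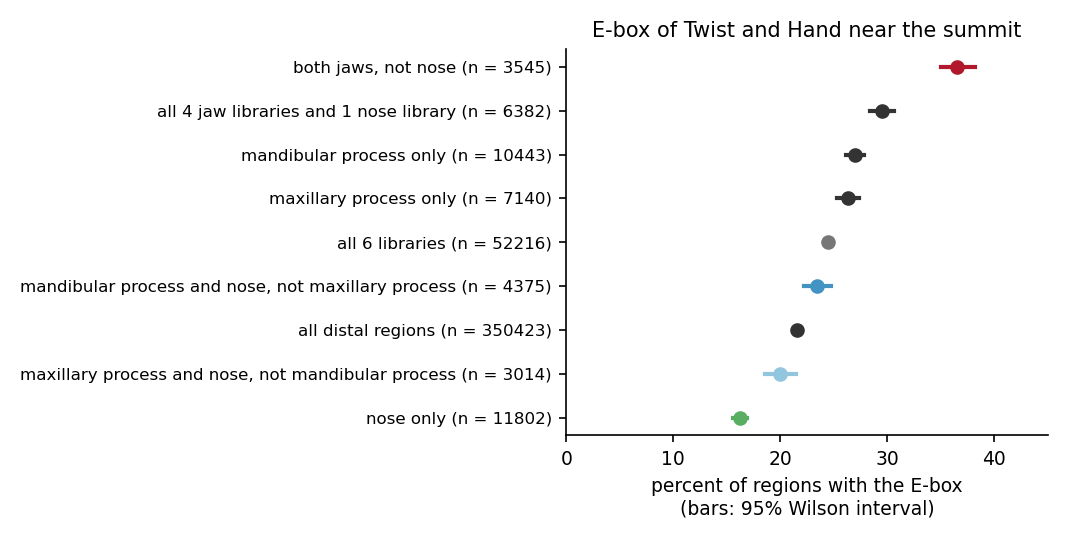
Percent of regions (horizontal axis) with the E-box CAGATG within 100 bp of the summit. Rows are members (top) and other presence patterns, with the number of regions. Points are shares and bars 95% Wilson intervals; the members' 36.6% lies above all other sets shown, and the interval of nose only (16.2%) is the lowest.

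Sites in the strongest members that carry the box are printed in the orientation of CAGATG (capitals), with 10 bases on each side, to show the flanks. Each is named by its nearest protein-coding gene.

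Igfbp3, chr11:7796529-7796554, - strand: gctgcattccCAGATGatgggtgcat
Trdmt1, chr2:13556453-13556478, + strand: atatggtcttCAGATGtagatgctgg
Unc5d, chr8:30002109-30002134, - strand: gtaagcctgaCAGATGtgctgggctt
Gm6793, chr8:112219810-112219835, + strand: ccatatggagCAGATGtgggccaagc
Ostm1, chr10:42706947-42706972, - strand: tgctgttgccCAGATGcatacgcagt
Ncoa2, chr1:13385405-13385430, + strand: aacacaaagaCAGATGaaactaatgg
Cntnap5a, chr1:115193240-115193265, - strand: acctggtctcCAGATGttgttattgt
Cntnap2, chr6:46841072-46841097, + strand: tcttttgagaCAGATGcactcaaaag

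Among the 1581 E-boxes of the members whose flanks could be read, CCAGATGT was the most frequent 8-letter form, with 265 (16.8%, 15 to 18.7%). It made up 7.81% of the boxes of mandibular process and nose, 11.6% of those of maxillary process and nose, 6.97% of those of nose only and 12.9% of those of all 6 libraries. Windows with 2 or more boxes were 261 members (7.36%), against 2.93% for mandibular process and nose, 1.79% for maxillary process and nose and 1.51% for nose only. So members both had the box more often and had it more often in a form flanked by C and T.

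The share of members with the box was larger among stronger members. With the members in 4 groups of equal size, by their lowest percentile in the 4 jaw lists, it was from weakest to strongest 32.7% (29.7 to 35.9%), 35.1%, 37.0% and 41.4% (38.2 to 44.7%). It was 36.5% in introns (34.2 to 38.8%) and 36.8% between genes (34.5 to 39.1%), with intervals that overlap. The groups by leaning between the jaws overlapped as well. Of the members stronger in both maxillary libraries 36.3% had the box, of those stronger in both mandibular libraries 36.8%, and of those whose jaws overlapped 36.6%. Within the window, the boxes were spread over the 100 bp on either side of the summit, with 21.6% of them in the nearest 20 bp and 14.7% in the farthest 20 bp, much as in the sets of 1 jaw and nose (19.4 and 15.4% for mandibular process and nose).

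**Figure D3:**
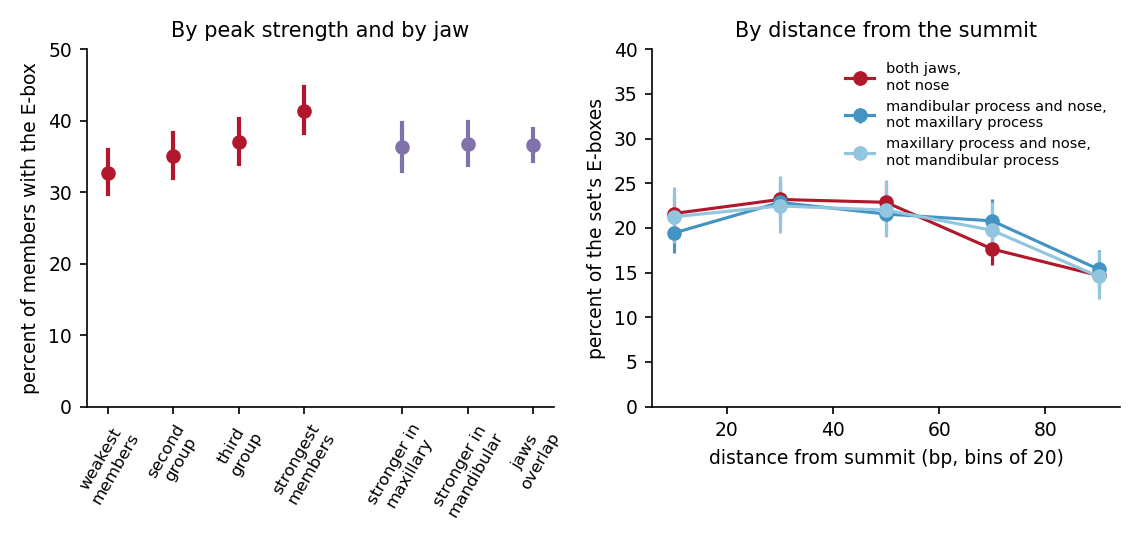
Left, percent of members with the E-box CAGATG (vertical axis) by group of peak strength and by leaning between the jaws. Right, percent of each set's E-boxes by distance from the summit (horizontal axis, bp). Points are shares and bars 95% Wilson intervals; the strength groups run between 32.7% and 41.4%, and the 3 leaning groups lie within 36.3 to 36.8%.

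A composite of a homeodomain core and this E-box, called Coordinator, is known from human cranial neural crest cells, where TWIST1 and homeodomain factors bind it together. In the members, the homeodomain core TAAT began 10 bp before CAGATG in 39 of 1584 boxes (2.46%, 1.81 to 3.35%), more often than at any other offset within 30 bp, the next being 0.947% at 19 bp before. The same spacing was found in 3.12% of boxes in regions of all 6 libraries, 1.90% for mandibular process and nose and 1.52% for maxillary process and nose. In regions of nose only it was 0.526% (0.294 to 0.94%). It was the most frequent offset in each of these 4 sets and not in nose only, where the highest was 0.718% at 19 bp after the start of the box. The members' share was not above that of regions in all 6 libraries. The strongest members with both motifs at this spacing are shown with TAAT and CAGATG in capitals, in the orientation of CAGATG. Each is named by its nearest protein-coding gene, at any distance. The distance was 1376.7 kb for Tenm3, 1102.9 kb for Nr2f1, 424.9 kb for Nova1, 124.3 kb for Cdh7, 10.29 kb for Zmat4 and 308.7 kb for G2e3.

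Tenm3, chr8:50051248-50051273, - strand: gtaaaTAATggatcaCAGATGctaaa
Nr2f1, chr13:79302713-79302738, + strand: agcaaTAATaagttaCAGATGgcaga
Nova1, chr12:47243730-47243755, - strand: caatgTAATgtggtaCAGATGtgata
Cdh7, chr1:110118282-110118307, - strand: tatttTAATccaaagCAGATGaaatt
Zmat4, chr8:23659279-23659304, + strand: caagaTAATccctccCAGATGttccc
G2e3, chr12:51039343-51039368, + strand: caataTAATagcatgCAGATGctgtc

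**Figure D4:**
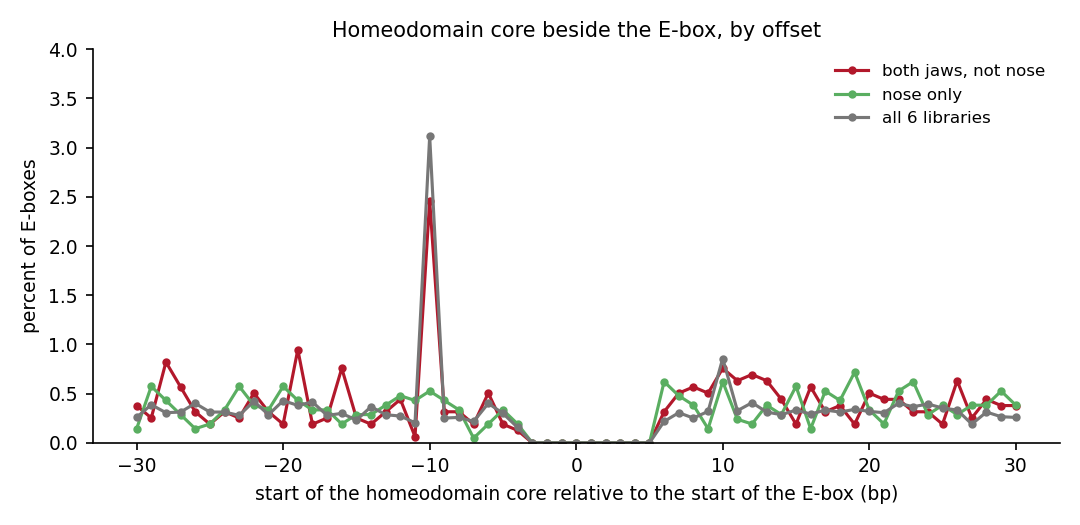
Percent of E-boxes (vertical axis) with a homeodomain core at each offset (horizontal axis, bp from the start of the E-box) for members (red), nose only (green) and all 6 libraries (grey). The peak at 10 bp before the box is 2.46% for members and 3.12% for all 6 libraries, and 0.526% for nose only, which has no such peak.

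Of 27 motifs searched, 3 had a share above both like sets with intervals apart. A share below both was found for 10, with intervals apart for 1 of them. For the motifs with intervals apart other than CAGATG, the intervals of the members overlapped those of regions of mandibular process only. Beside CAGATG, the first was the E-box CATATG, found in 10.4% of members, against 7.22% for mandibular process and nose, 4.48% for maxillary process and nose and 6.03% for all distal regions, but it was in 10.3% of regions of mandibular process only and 5.83% of maxillary process only. The other was ATCAAAG, the core of Tcf and Lef factors, which act at the end of the Wnt pathway, with 6.21% of members against 4.73%, 3.02% and 4.01%, and it was in 6.51% of regions of mandibular process only and 3.87% of maxillary process only. The palindrome GCCNNNGGC of Tfap2 factors was less frequent than in both like sets, with 3.55% of members against 6.63%, 5.28% and 5.56%, and it was in 3.93% of regions of mandibular process only and 4.79% of maxillary process only. The homeodomain core TAATTA was found in 6.32% of members, between mandibular process and nose (5.03%) and maxillary process and nose (8.46%). All shares count a motif on either strand, and CAGATG does not overlap CATATG. A match says only that the letters are there.

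Near genes, the members were thinly spread. Within 100 kb of a protein-coding start site lay 2040 members, next to 1740 genes, and 1505 members lay farther away. Most of these genes had 1 member (1492) and 203 had 2. Dkk2, a secreted modulator of Wnt signalling, had 5, which is 5 of the 15 distal regions near it that were open in all 4 jaw libraries. Of these 5, 2 lay side by side, at chr3:132161077-132161479 and chr3:132161587-132161927, and count as separate only because their peaks did not overlap. Another, at chr3:132022667-132023796, had a nose peak 326 bp away. With 4 each followed Mab21l1 (of 14 such regions), Filip1l (of 27), Auts2 (of 24), Gm11146 (of 10) and Creb5 (of 15), so genes with many regions could rank high by their number alone. Mab21l1 is known for its role in eye and craniofacial development, and Auts2 is known from neural development. All 4 members nearest to Mab21l1 lay in introns of Nbea, 30.75 to 97.31 kb from the start of Mab21l1. All 4 nearest to Gm11146 lay in introns of Mir99ahg. The 5 members at Dkk2 had a −log10 q between 2.45 and 11.2 in maxillary replicate 1, between 3.19 and 21.02 in maxillary replicate 2, between 2.33 and 12.5 in mandibular replicate 1 and between 2.58 and 9.29 in mandibular replicate 2, and neither jaw had the higher percentiles at all 5.

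Near genes of lower-jaw patterning and endothelin signalling, 9 of 97 distal regions open in all 4 jaw libraries lacked a nose peak (9.28%, Wilson 95% interval 4.96 to 16.7%), against 4.92% near all genes and 5.7% over all such distal regions. The interval includes the 5.7% and begins just above the 4.92%, and since the rule used this contrast the count is a description. Ednra, the receptor for endothelin, had 2 members in introns, at chr8:77670229-77670372 and chr8:77671026-77671409, with a nose peak 315 and 143 bp away. Mef2c, a factor that acts after this receptor, had 2, of which 1 (chr13:83662326-83662585) lay 19 bp from a nose peak. That member was weak, with a −log10 q of 1.85 and 2.73 in the maxillary and 1.79 and 1.60 in the mandibular libraries. Hand2, the E-box binding factor of the lower jaw, had 1 at chr8:57348964-57349630, 28.5 kb from its start and in an exon of the non-coding gene 5033428I22Rik, with a −log10 q of 9.22 and 17.3 in the maxillary and 12.4 and 7.65 in the mandibular libraries. Dlx4, Dlx5, Gsc and Barx1, all homeobox genes of the first arch, had 1 each. Edn1, Ece1, Hand1, Dlx3, Dlx6 and Nkx3-2, also in this list, had no member. The member near Gsc, 7.71 kb from its start at chr12:104465404-104465898, was weak, with a −log10 q of 4.58 and 6.46 in the maxillary and 2.02 and 1.67 in the mandibular libraries.

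Genes of the first arch as a whole had 7 members among 119 such regions (5.88%), among them 1 each near Pitx1, Prrx1, Osr2, Barx1 and Gsc, of which the last 2 are also in the lower-jaw list. Prrx1 is a homeobox gene of limb and facial mesenchyme, and Osr2 is known for its role in the palate. The member near Osr2 had a nose peak 133 bp away and a −log10 q of 1.87 in mandibular process replicate 2. List genes without a member included Twist1 (9 such regions), Dlx1 (4), Dlx2 (9), Msx1 (5), Msx2 (8), Lhx6 (4) and Lhx8 (13). Only 1 distal region open in all 4 jaw libraries had Pitx1 as its nearest gene within 100 kb, and it was a member. It lay 24.5 kb from the start of Pitx1, with a −log10 q of 3.91 and 5.79 in the maxillary and 12.1 and 9.33 in the mandibular libraries. Genes of the upper jaw had 3 of 76, among them members near the nuclear receptor genes Nr2f1 and Nr2f2. Genes of frontonasal mesenchyme, which include Pax3 and the Alx genes, had 0 of 50 within 100 kb, which allows a share of up to 6.0% (3 counts of 50, with a Wilson upper limit of 7.135%), and genes of nasal and olfactory epithelium had 2 of 92, near Sox2 and Lhx2. The 3 members whose nearest gene is Pax3 lay beyond this limit.

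Other cell types were present among these counts. Endothelial genes had 6 of 49 (12.2%, 5.74 to 24.2%): 3 near Emcn and 1 each near Pecam1, Cdh5 and Cldn5, all markers of vessels. This interval begins just above both backgrounds, on 49 regions. The other vessel genes with such regions had no member: Kdr (2 regions), Tek (5), Erg (7) and Fli1 (13). Of the members near Emcn, 2 lay side by side, at chr3:137269126-137269389 and chr3:137269609-137270049, so the 6 are not independent. Genes of cartilage and bone had 6 of 77, with 3 at Sox5, a partner of Sox9, and 1 each at Sox9, Col1a1 and Col11a1. Signals of the face had 4 of 93, with 3 at Wnt11 and 1 at Bmp7. Genes of head muscle had 4 of 61, and those of oral and surface epithelium 3 of 51. Single members lay near Foxa2 of pharyngeal endoderm, Foxd3 of the neural crest and glial precursors, and Itga2b of blood. Genes of neurons had 0 of 29, which allows up to 10.3% (3 counts of 29, with a Wilson upper limit of 11.7%). The part of vessels or other cells in the members was not tested. For the lower-jaw and first-arch lists together the share was 7.14% (4.30 to 11.6%), near the 5.7% of all such distal regions. Counting only members with no nose peak within 500 bp, it was 4.59% (2.43 to 8.495%), with 2806 members among all 62143 such regions. Without maxillary process replicate 1 it was 10.9%, against 8.97% of all such distal regions, and without nose replicate 1 or 2 it was 12.3% and 13.6%, against 10.5% and 11.2%, each within the list's interval.

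**Figure D5:**
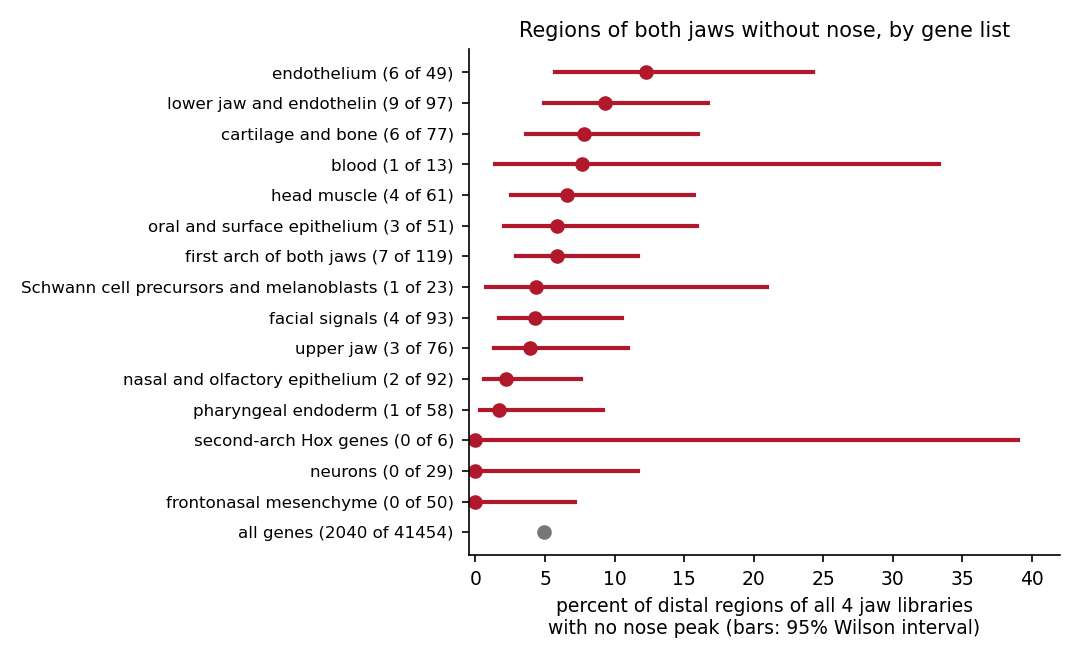
Percent of the distal regions open in all 4 jaw libraries that lacked a nose peak (horizontal axis), for regions within 100 kb of the genes of 15 lists and of all genes (rows, with members of regions). Points are shares and bars 95% Wilson intervals; endothelium (12.2%) and lower jaw and endothelin (9.28%) are highest, with intervals that begin at 5.74% and 4.96%, and the intervals of the other 13 lists include the 4.92% of all genes.

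In the lists as deposited, members leaned to the mandibular process about as often as other regions did, and to the maxillary process more often. By percentile within each list, 764 members (21.6%, 20.2 to 22.9%) were stronger in both maxillary libraries than in both mandibular libraries, and 982 (27.7%, 26.3 to 29.2%) the reverse. Over all distal regions open in the 4 jaw libraries these shares were 18.3% and 27.3%, so the share of members leaning to the mandibular process was near the background, and the interval of the share leaning to the maxillary process lay above it. These shares depend on list length. With lists of equal length, 15.2% of members leaned to the maxillary and 33.3% to the mandibular libraries. The background was not computed for that setting, so whether the maxillary excess holds there is not known. With 2 libraries against 2, the smallest two-sided p that an exact permutation test can give is 0.333, so no region was tested. Leaving out a jaw library, which asks less of a region, raised the maxillary share to 41.6% without mandibular process replicate 1 and 36.8% without its replicate 2, and the mandibular share to 42.3% and 45.7% without maxillary process replicate 1 or 2.

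Among the members with the widest gap in favour of the maxillary libraries were 2 in introns of the non-coding gene Gm47071, which runs between Pitx1 and H2afy. At chr13:55955866-55956935, nearest to Pitx1, the −log10 q was 14.6 and 18.9 in the maxillary libraries and 1.83 and 2.58 in the mandibular libraries. At chr13:56003709-56004502, nearest to H2afy, it was 12.8 and 22.2 in the maxillary and 2.61 and 1.802 in the mandibular libraries. The jaws did not overlap at either by percentile, and the member 24.5 kb from Pitx1 in the same non-coding gene had the opposite order. In favour of the mandibular libraries, a member 258 kb from Jag1, a Notch ligand, had a −log10 q of 1.57 and 2.56 in the maxillary and 12.4 and 8.43 in the mandibular libraries. Because the file names and the labels of the jaws disagree, which jaw these values belong to rests on the labels alone.

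Along the genome, 724 members (20.4%) stood less than 50 kb from another, in 337 runs. The same count was not made for other sets, so it does not show whether members lie closer together than other regions. The longest run had 5 members in 153 kb (chr3:143511960-143664917), between Lmo4, a cofactor of transcription, and Pkn2. Runs of 4 lay at Jarid2 on chromosome 13, at Cradd on chromosome 10 at Svil and Zfp438 on chromosome 18, and beside Acvr1b, an activin receptor, on chromosome 15. Of distal regions open in all 4 jaw libraries, the share without a nose peak ran between 4.12% on chromosome 19 and 6.70% on the X chromosome, with the others of chromosomes 1 to 18 in between.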

How the data were processed

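Bulk ATAC-seq peak lists of 6 libraries were used, with 2 per label. Alignment tools in the submitters' processing notes are Bowtie2 and SAMtools, on mm10. The peak caller is not given in the sources used here. The authors deposited 1 list per library, with a score, a fold over local background (a ratio), a −log10 p-value and a −log10 q-value for each summit. The score was not used. Peaks sharing 1 bp were merged, and a region's strongest summit (by percentile of the −log10 p within its list) was set against GENCODE M21 start sites of protein-coding genes. Genes were assigned up to 100 kb. Sequence came from RefSeq GRCm38.p6. Shares have Wilson 95% intervals, medians exact order-statistic intervals. No test was made, because the rule used the contrast with the nose and regions are not replicates. Read depth is not in the lists, so precision per region is unknown. Scripts ran in Python 3.11.15 with pandas 2.3.3, matplotlib 3.10.9, scipy 1.17.1 and numpy 2.4.6, and merging, assignment and motif search were tested on simulated data.

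Genes named are the 12 with most members, the nearest genes of the 12 strongest members, genes of the lists with members (some are not reported here), and those at the limits of the rule; leaning members, runs, Sox9 and sites with both motifs were chosen after their values were seen. The members and gene lists were chosen with earlier results of these data known. Alternatives covered stricter q, lists of equal length, presence by cover, distance to nose peaks, the start-site limit and annotation, each library left out, the window, fold in place of p, and the gene distance. Comparisons of the E-box share with the like sets under these settings were added after seeing the data.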

Additional observations from a re-analysis of the deposited data

How the results depend on the processing

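The E-box share of the members was above that of both like sets under every setting tried. The difference to mandibular process and nose ran from 9.18 to 16.1 percentage points and the difference to maxillary process and nose from 11.1 to 19.3 points. With a −log10 q of at least 3 in any list, members were intronic in 49.2%, had a median width of 446 bp and GC of 45.5%, and 20.2% leaned to the maxillary and 29.9% to the mandibular libraries. With at least 5 in any list there were 1655 members, of 519 bp and 46.0% GC. TAATTA was in 4.83% of them and CAGATG in 39.0%, a difference of 19.3 points to maxillary process and nose. Of the distal regions near the lower-jaw and first-arch genes that were open in all jaw libraries, 11.7% were members. With at least 5 in the jaw lists only there were 147 members, 44.2% intronic, 105.8 kb from a start site, of 535 bp and 44.0% GC. TAATTA was in 3.401% of them and CAGATG in 42.9%, with differences of 16.1 and 18.9 points. Of these members, 23.8% and 24.5% leaned to the maxillary and mandibular libraries. Near the listed genes, 1.28% of such distal regions were members. The share over all such distal regions was not computed for either setting, so no shift particular to the listed genes can be read from these shares. With lists of equal length the width was 401 bp, GC 45.5%, and 15.2% and 33.3% leaned to the maxillary and mandibular libraries. With no nose peak within 500 bp the width was 378 bp, and beyond 5 kb from a start site the distance was 80.75 kb. In windows of 100 bp GC was 47.0%, TAATTA 2.00% and CAGATG 22.1%, with differences of 9.18 and 11.1 points, and in windows of 300 bp GC was 44.0%, TAATTA 10.01%, CAGATG 44.85% and the difference to mandibular process and nose 15.2 points. The cause of these shifts was not tested.

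Leaving out each library in turn, which relaxes the rule, gave 4884 to 6974 members, 47.3 to 48.9% intronic, 62.75 to 72.6 kb from a start site, 292 to 366 bp wide, with GC of 45 to 46.0%, TAATTA in 5.65 to 6.20% and CAGATG in 32.65 to 34.4%. The E-box differences were 9.18 to 12.6 and 11.2 to 14.9 points. Of members, 19.8 to 41.6% leaned to the maxillary and 26.5 to 45.7% to the mandibular libraries. Of the distal regions near the listed genes that were open in the jaw libraries kept, 7.98 to 13.6% were members. Over all such distal regions the share was 7.21 to 11.2%. No paired analysis was possible because these results come from no test. Depth in reads is not in the lists, so no limit of detection can be given for any library.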
